A study of Mus musculus with 6 samples.

Results

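The genes examined were 8 genes of the zona glomerulosa, the outer zone of the adrenal cortex that makes aldosterone: Cyp11b2, Hsd3b6, Agtr1a, Agtr1b, Vsnl1, Kcnk9, Kcnk3 and Cacna1h. They were picked by name from a list of aldosterone synthesis, angiotensin receptor and ion channel genes, by a rule that uses no measured value, although earlier results of these data were known. All 8 had a row in each of the 3 count tables, which cover 12718 genes, and all 8 passed the filter on low counts in each table. ChIP-seq with an antibody against RPB1(NTD), the N-terminal part of RNA polymerase II's largest subunit, was used on formaldehyde-fixed chromatin, so the counts report polymerase on a gene and not its mRNA. The material was whole adrenal glands, frozen after resection, of female mice of a 129 sv X CD1 background aged 10 to 14 months. The 3 WT mice and the 3 mice with genotype Armc5(-/-) had 6 different mouse numbers, and 1 library came from each. Armc5 encodes an armadillo-repeat protein; the labels give no agent and no detail of the allele, and Armc5 itself was not analysed here. Whole glands hold every zone, the medulla and the capsule. A change in the number of zona glomerulosa cells and a change in polymerase per cell thus cannot be told apart.

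Aldosterone secretion is driven by angiotensin II and by plasma potassium. Angiotensin II binds its type 1 receptor on glomerulosa cells, which couples through Gq to phospholipase C and intracellular calcium release. Background potassium channels of the TASK family hold the membrane at a negative resting voltage, and when they close the cell depolarises and calcium enters through voltage-gated channels. Calcium signalling raises transcription of Cyp11b2, aldosterone synthase, which carries out the last steps from deoxycorticosterone to aldosterone.

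Counts per library ranged from 1133364 to 3406223 at the transcription start site (TSS), from 12419812 to 22523647 over gene bodies and from 958001 to 2294430 at the transcription end site (TES). Levels are given as CPM, read counts scaled by TMM to a common library total within a region's table, in the order replicate 1, 2, 3. A gene was called at a Benjamini-Hochberg adjusted p under 0.05 in edgeR's quasi-likelihood test over all genes of a table. The libraries were split by rank of total count into a shallower class (knockout replicate 1, WT replicates 1 and 2) and a deeper class (WT replicate 3, knockout replicates 2 and 3). Totals over the 3 tables ran from 14511177 to 28190157. On either side of the split lay WT replicate 1 with 22203948 and knockout replicate 3 with 24714835. These classes lay apart on principal component 1 of log2 CPM. The tables held strong counts at genes that define the adrenal cortex: Star, the mitochondrial cholesterol carrier of steroid synthesis, had 73.0 gene body CPM per kb of annotated length over all 6 libraries, and Cyp11b1, the glucocorticoid-making relative of Cyp11b2, had 43.0. Dab2, a further glomerulosa marker, was not analysed here.

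The promoters of 3 of the 8 genes were found in the RefSeq table of GRCm38.p6, and the 250 bases before the annotated start are shown as the annotated upstream sequence of genes whose TSS counts are described; the placement of the counted windows is not given in the sources used here. All are on the minus strand and are written 5′ to 3′ along the gene. That of Agtr1b lies at chr3:20367178-20367427, that of Hsd3b6 at chr3:98814444-98814693 and the upstream one of the pair annotated for Vsnl1 at chr12:11436579-11436828. Capitals mark the TATA box motif TATAAA.
Agtr1b: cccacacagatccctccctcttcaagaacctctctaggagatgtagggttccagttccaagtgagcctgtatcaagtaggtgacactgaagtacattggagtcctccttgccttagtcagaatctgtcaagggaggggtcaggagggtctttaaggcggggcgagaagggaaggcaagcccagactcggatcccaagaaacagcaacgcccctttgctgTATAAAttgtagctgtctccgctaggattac
Hsd3b6: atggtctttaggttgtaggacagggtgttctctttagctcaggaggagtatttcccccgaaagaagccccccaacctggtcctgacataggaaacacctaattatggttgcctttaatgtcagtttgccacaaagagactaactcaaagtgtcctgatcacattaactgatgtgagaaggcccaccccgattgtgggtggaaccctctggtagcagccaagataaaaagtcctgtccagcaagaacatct
Vsnl1: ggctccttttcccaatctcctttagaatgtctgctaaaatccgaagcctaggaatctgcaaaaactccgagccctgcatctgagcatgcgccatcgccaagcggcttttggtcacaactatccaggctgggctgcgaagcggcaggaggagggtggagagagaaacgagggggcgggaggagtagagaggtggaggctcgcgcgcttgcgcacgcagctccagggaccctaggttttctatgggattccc
Searched on both strands, TATAAA was found in Agtr1b alone, at 31 to 26 bases before the start, and 12.4% of 32851 promoter windows of the same length hold it. The nuclear receptor element AAGGTCA, bound by steroidogenic factor 1 and its relatives, and the cAMP response core TGACG were not in these windows; 4.08% and 17.8% of all windows hold them. Vsnl1 had 58.0% G and C bases and 14 CG pairs, against 52.0% and 5 in Agtr1b and 47.2% and 2 in Hsd3b6; the median promoter had 52.4% and 6. Vsnl1 has another annotated start, whose 250 bases lie at chr12:11435652-11435901.

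Polymerase levels over the gene bodies spread widely among the 8 genes. Per kb of annotated length, the WT gene body level was 19.7 ± 7.91 CPM per kb (SD, n = 3) for Kcnk3, 4.10 ± 2.95 for Cyp11b2, 2.28 ± 0.59 for Agtr1a, 1.82 ± 0.32 for Cacna1h and 1.80 ± 0.38 for Kcnk9. Below these came Hsd3b6 at 1.24 ± 0.51, Agtr1b at 1.12 ± 0.52 and Vsnl1 at 1.10 ± 0.40 CPM per kb. Kcnk3, which encodes the acid-sensitive potassium channel TASK1, stood at the 99.2 percentile of 12384 genes with a known length, and its lowest WT library (11.0 CPM per kb) was above the highest WT library of every other gene of the 8. Cyp11b2 was at the 85.4 percentile, but its WT libraries ran from 1.45 to 7.28 CPM per kb and so overlapped those of Agtr1a, Cacna1h, Kcnk9, Hsd3b6 and Agtr1b. From Cyp11b2 downwards each gene's WT libraries overlapped those of the next in the order. The median gene had 1.73 CPM per kb, and Hsd3b6, Agtr1b and Vsnl1 had WT means under it. In the knockout the means were 23.3 ± 1.87 for Kcnk3, 5.53 ± 0.57 for Cyp11b2 and 4.06 ± 0.29 CPM per kb for Agtr1a.

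Cyp11b2 (chromosome 15, 74850618 to 74856231, GRCm38.p6) was the gene of the 8 whose WT mice differed most from each other in each region. Over its gene body the WT libraries had 40.9, 20.1 and 8.14 CPM and the knockout libraries 28.4, 34.6 and 30.2 CPM. At the TES the WT libraries had 150.2, 97.1 and 14.9 CPM and the knockout libraries 124, 109 and 138 CPM. In both regions WT replicate 3 was lowest and WT replicate 1 highest of all 6, with the 3 knockout libraries between them. The highest WT library exceeded the lowest 5.02-fold over the gene body and 10.1-fold at the TES, against 1.22-fold and 1.26-fold within the knockout. Among all genes those WT ratios were at the 99.9 and 99.7 percentile. At the TSS Cyp11b2 had few reads, with counts of 24, 14 and 6 in WT and 14, 35 and 37 in the knockout, or 13.1, 14.5 and 1.92 CPM against 7.88, 9.58 and 13.5 CPM. The groups overlapped in every region. Knockout over WT, the log2 fold change was 0.21 ± 0.62 at the TSS, 0.43 ± 0.47 over the gene body and 0.52 ± 0.35 (SE) at the TES, and no region passed (adjusted p = 0.991, 0.935 and 0.904). Without WT replicate 3 these values were -0.39, 0.01 and -0.01, and without WT replicate 1 they were 0.59, 1.16 and 1.25. Among the deeper libraries WT replicate 3 (14.9 CPM at the TES) lay under knockout replicates 2 and 3 (109 and 138), while among the shallower ones knockout replicate 1 (124) lay between WT replicates 1 and 2. With this depth class as a covariate the TES difference passed (log2 fold change 1.32, adjusted p = 0.0192), as 1 of 2 calls among 16 alternatives. Adjusted p over the 16 ran from 0.0192 to 0.9998, and each class has 1 genotype with a single library.

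**Figure D1:**
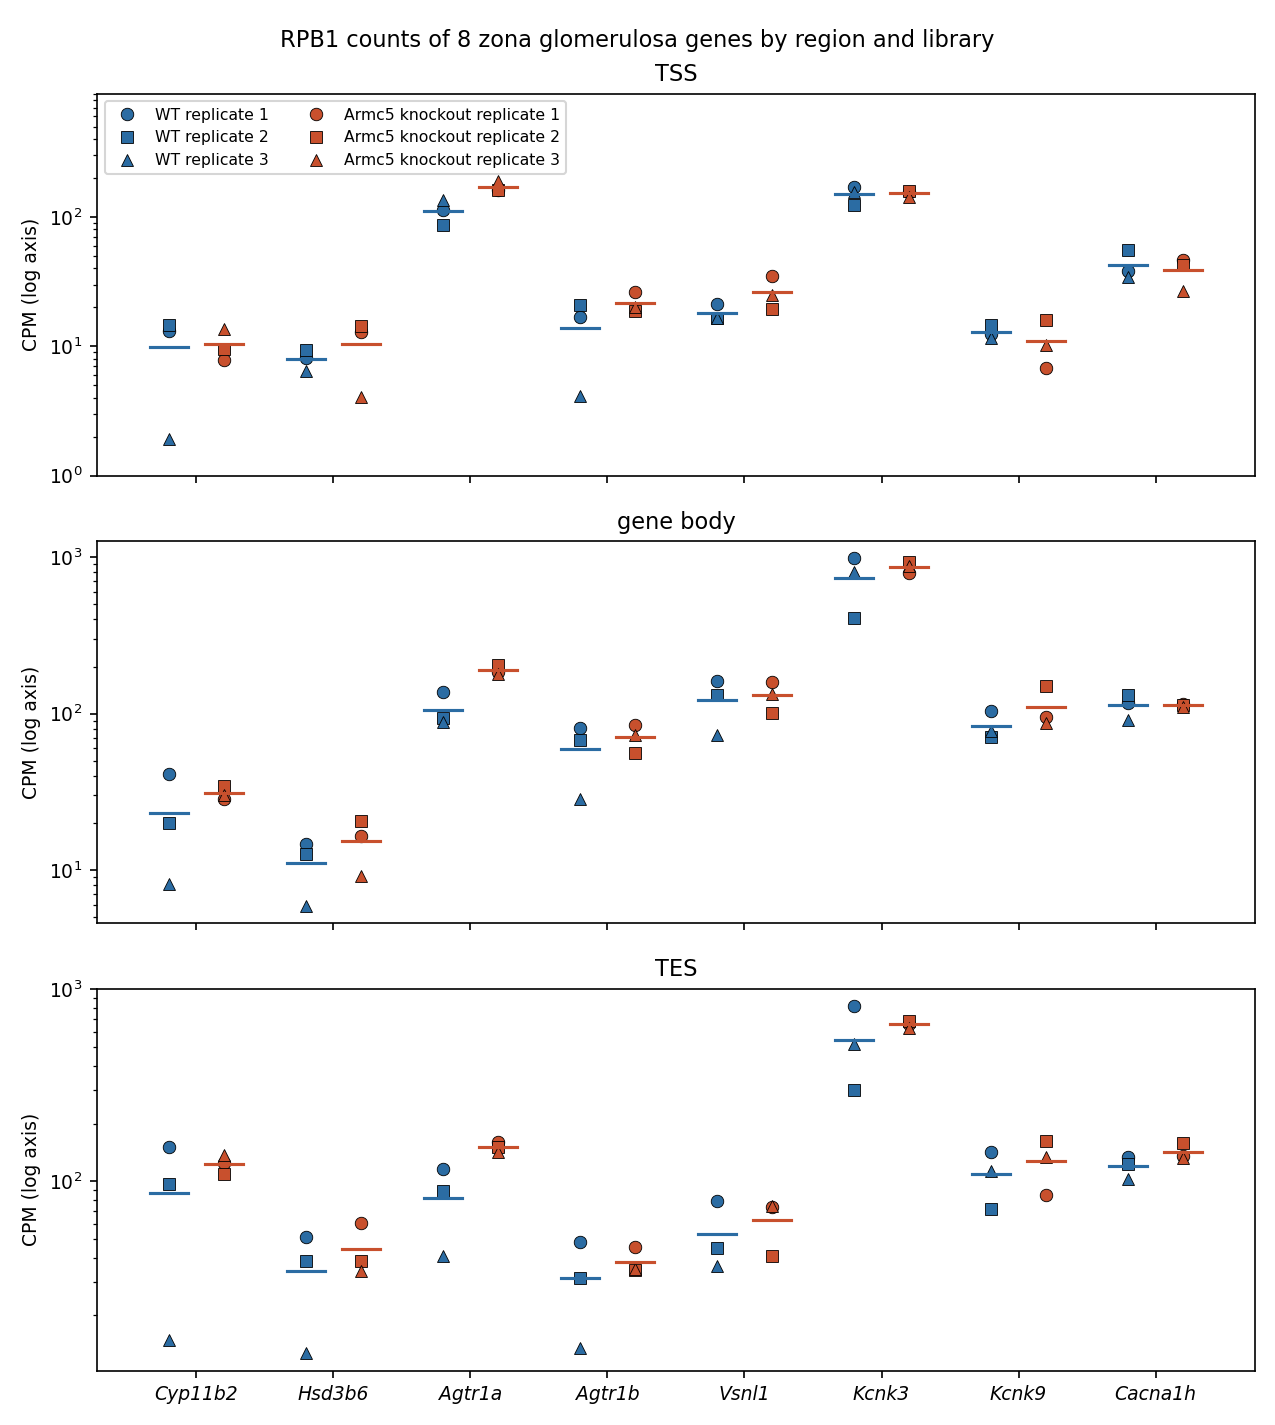
CPM of the 8 genes in each library for TSS, gene body and TES on log axes, with WT in blue, Armc5 knockout in red, a marker shape per replicate and a bar at the mean of 3 libraries. Agtr1a is the gene whose knockout libraries all lie above its WT libraries in the 3 regions, and WT replicate 3 is the lowest library of Cyp11b2, Hsd3b6 and Agtr1b over gene body and TES.

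Hsd3b6 (chromosome 3, 98805504 to 98814443), the 3-beta-hydroxysteroid dehydrogenase isoform of the mouse glomerulosa, converts pregnenolone to progesterone on the way to aldosterone. Its gene body had 14.6, 12.8 and 5.92 CPM in WT against 16.6, 20.6 and 9.12 CPM in the knockout. At the TES the values were 51.4, 38.2 and 12.7 CPM in WT against 60.6, 38.4 and 33.9 CPM in the knockout. WT replicate 3 was again the lowest library in both regions, and the groups overlapped. The TSS held 9 to 52 counts per library, 8.17, 9.31 and 6.40 CPM in WT against 12.9, 14.2 and 4.02 CPM in the knockout. Log2 fold changes were 0.42 ± 0.51, 0.48 ± 0.39 and 0.39 ± 0.31 for TSS, gene body and TES, and none passed (adjusted p = 0.974, 0.934 and 0.951). Without WT replicate 3 the TES value was -0.07.

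The closest paralogs of both enzymes differ in zone and lie nearby. Cyp11b1, the 11-beta-hydroxylase of the zona fasciculata, lies 8974 bp from Cyp11b2, and Hsd3b1 lies 27912 bp from Hsd3b6. Over gene bodies Cyp11b1 had 310.3 ± 108 CPM in WT and 270.1 ± 5.87 CPM in the knockout, and Hsd3b1 had 191 ± 78.5 and 202 ± 29.9 CPM. Neither passed in any region, with Cyp11b1 log2 fold changes of 0.05, -0.20 and 0.26 and Hsd3b1 values of 0.50, 0.08 and 0.23 for TSS, gene body and TES. WT replicate 3 was not the low library of either gene body: Cyp11b1 had 381, 186 and 364 CPM and Hsd3b1 had 268, 112 and 194 CPM in the WT libraries. The counting of reads that match both members of such a pair is not given in the sources used here, so part of the Cyp11b2 and Hsd3b6 counts may belong to the more abundant paralog.

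Of the 8 genes Agtr1a, which encodes the angiotensin II type 1a receptor, had the largest log2 fold change over gene body and TES and was the only gene of the 8 whose knockout libraries all lay above its WT libraries. At the TSS it had 112, 86.9 and 135 CPM in WT against 161, 162 and 189.5 CPM in the knockout. Its gene body (chromosome 13, 30336356 to 30382867) had 137.5, 93.2 and 87.8 CPM in WT against 184, 204 and 178 CPM in the knockout. At the TES it had 115, 89.2 and 40.7 CPM in WT against 159, 151 and 143 CPM in the knockout. The groups were apart in each region, as for 6.46% of genes at the TSS, 6.51% over the gene body, 6.7% at the TES and 0.696% in all 3 regions at once. Of the 8 genes 0 had all knockout libraries under all WT libraries in a region, as 4.94%, 3.87% and 4.83% of genes did. All 3 counts come from 1 set of libraries, so the 3 orders are not independent. From 111 ± 23.9 to 171 ± 16.3 CPM at the TSS the fold was 1.51 (log2 fold change 0.60 ± 0.18), over the gene body 1.78 (0.83 ± 0.19) and at the TES 1.87 (0.90 ± 0.27). None passed (adjusted p = 0.448, 0.223 and 0.111; unadjusted p = 0.00648, 0.00236 and 0.00158). DESeq2 called the gene body (adjusted p = 0.0141, with 0.0141 to 0.834 over 16 alternatives). At the TES 4 of 16 alternatives called it. Among them were depth class (adjusted p = 0.00154), the C-prefixed against digits-only mouse numbers (0.0317) and leaving out WT replicate 1 (0.0307). The 16 alternatives ran from 0.00154 to 0.457. Its log2 fold change stayed between 0.47 and 1.26 over all alternatives and regions, and without WT replicate 3 the TES value was 0.55.

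Agtr1b encodes the type 1b receptor, a mouse and rat duplicate that is the glomerulosa form, and its promoter is the first sequence shown above. Its gene body (chromosome 3, 20314473 to 20367177) had 81.5, 67.8 and 28.6 CPM in WT against 84.7, 56.1 and 72.9 CPM in the knockout. TES values were 48.5, 31.4 and 13.6 CPM in WT against 45.2, 34.3 and 34.9 CPM in the knockout. Counts at the TSS were 31, 20 and 13 in WT and 47, 68 and 55 in the knockout, or 16.9, 20.7 and 4.16 CPM against 26.5, 18.6 and 20.1 CPM. WT replicate 3 was the lowest library throughout and the groups overlapped. The log2 fold change was 0.74 ± 0.49 at the TSS, 0.27 ± 0.35 over the gene body and 0.31 ± 0.31 at the TES, and none passed (adjusted p = 0.952, 0.941 and 0.960). Leaving out WT replicate 3 gave 0.21, -0.07 and -0.11.

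Vsnl1 encodes visinin-like 1, a neuronal calcium sensor protein that also marks the glomerulosa. Over its gene body (chromosome 12, 11325257 to 11436578) the WT libraries had 161, 131 and 73.1 CPM and the knockout libraries 160.2, 101 and 133 CPM. At the TES they had 78.6, 45.1 and 36.3 CPM against 73.6, 40.7 and 74.3 CPM, and at the TSS 21.2, 16.5 and 16.6 CPM against 34.9, 19.4 and 24.9 CPM. The groups overlapped in each region, with WT replicate 3 lowest over gene body and TES. Log2 fold changes were 0.52 ± 0.31, 0.11 ± 0.29 and 0.23 ± 0.26 for TSS, gene body and TES, and none passed (adjusted p from 0.952 to 0.970).

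The 3 channel genes did not pass in any region. Kcnk3 (chromosome 5, 30588170 to 30625270) had gene body values of 981, 409 and 808 CPM in WT against 791, 929 and 873 CPM in the knockout. Its TES values were 821, 299 and 522 CPM against 661, 686 and 627 CPM, and its TSS values 172, 124 and 156 CPM against 157, 158 and 144 CPM. In every region WT replicate 2 was lowest and WT replicate 1 highest, with the knockout libraries between them. The log2 fold changes were 0.01 ± 0.16, 0.24 ± 0.29 and 0.26 ± 0.30 for TSS, gene body and TES (adjusted p from 0.939 to 0.998). Without WT replicate 2 they were -0.094, -0.049 and -0.035.

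Kcnk9 (chromosome 15, 72501873 to 72548614) encodes TASK3, the partner of TASK1 in the glomerulosa background potassium current. Its gene body had 104, 70.7 and 77.2 CPM in WT against 95.0, 151 and 86.7 CPM in the knockout, and its TES 141, 71.6 and 114 CPM against 85.1, 163 and 134 CPM. Knockout replicate 2 was highest of the 6 in all regions, with 15.9 CPM at the TSS, where the other libraries had 6.75 to 14.5 CPM. The log2 fold changes were -0.17 ± 0.40, 0.40 ± 0.24 and 0.22 ± 0.26 (adjusted p from 0.934 to 0.991), and the negative TSS value was 0.11 with library totals taken over the 3 tables together. Without knockout replicate 2 the values were -0.55, 0.12 and 0.0037, and without WT replicate 2 the TES value was 0.0019.

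Cacna1h (chromosome 17, 25374285 to 25436334) encodes the T-type calcium channel Cav3.2, through which calcium enters at small depolarisations. Its gene body had 117, 131 and 91.3 CPM in WT against 115, 114 and 110.0 CPM in the knockout, means of 113 ± 20.0 and 113 ± 2.52 CPM. TES values were 134, 123 and 103 CPM against 135, 159 and 132 CPM, and TSS values 38.1, 55.8 and 34.6 CPM against 46.7, 42.7 and 26.7 CPM. The groups overlapped in each region, with log2 fold changes of -0.12 ± 0.28, -0.0025 ± 0.16 and 0.25 ± 0.24 and no pass (adjusted p from 0.959 to 0.997). The SE of 0.16 in the gene body was the smallest of the 8 genes there. Cacna1h overlaps Tpsg1 by 158 bp and the lncRNA Gm33617 by 2560 bp. Kcnk3 overlaps the lncRNA Gm9899 by 450 bp and Cyp11b2 overlaps the lncRNA Gm41347 by 1031 bp. ChIP-seq reads in those stretches cannot be assigned to either gene.

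Across the 8 genes, edgeR called 0 at the TSS, 0 over the gene body and 0 at the TES, where 0.339%, 0.252% and 0.915% of all tested genes were called. At an unadjusted p under 0.05 there was 1 of 8 in each region, Agtr1a, where 5.57%, 5.05% and 6.85% of all tested genes reached it. DESeq2 called 0, 1 and 0 and limma-voom 0, 0 and 0. The log2 fold change was above 0 for 6 of 8 genes at the TSS, 7 of 8 over the gene body and 8 of 8 at the TES, where 48.4%, 46.3% and 47.8% of all tested genes were above 0. The median was 0.31, 0.33 and 0.28, against -0.01, -0.02 and -0.02 over all genes. Without WT replicate 3 the sign turned for Cyp11b2, Hsd3b6, Agtr1b and Vsnl1 at the TES. It also turned for Agtr1b and Vsnl1 in the gene body and for Cyp11b2 at the TSS. The count of positive values thus rests partly on that library. Without WT replicate 1 the TES values of Cyp11b2, Hsd3b6, Agtr1b and Vsnl1 were 1.25, 0.90, 0.84 and 0.63.

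**Figure D2:**
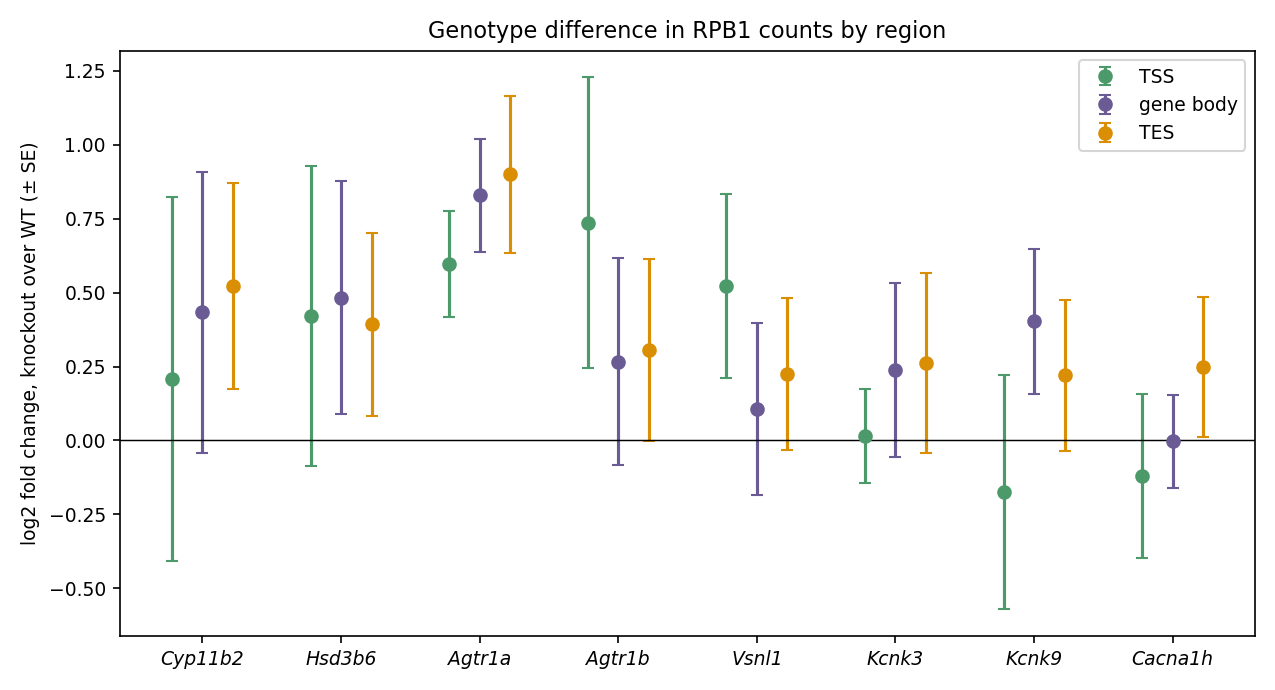
Log2 fold change of knockout over WT with its SE (n = 3 per genotype) for the 8 genes for TSS, gene body and TES. Agtr1a has the highest gene body and TES values, 0.83 and 0.90, and none of the 24 values passed an adjusted p of 0.05.

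WT replicate 3 was the lowest WT library for 5 of the 8 genes at the TSS, 6 over the gene body and 6 at the TES, and it was the lowest for 38.8%, 38.7% and 37.7% of all genes. Over gene body and TES these 6 were Cyp11b2, Hsd3b6, Agtr1a, Agtr1b, Vsnl1 and Cacna1h, and the lowest library of Kcnk3 and Kcnk9 was WT replicate 2. WT replicate 1 was the highest WT library for 7 of 8 genes over the gene body and 8 of 8 at the TES, but for 2 of 8 at the TSS, where WT replicate 2 was highest for 5. The share of all genes with WT replicate 1 highest was not computed. It was the lowest WT library for 28.3%, 21.3% and 24.5% of all genes for TSS, gene body and TES. The spread was wider within WT than within the knockout for 4 of 8 genes at the TSS, 7 of 8 over the gene body and 8 of 8 at the TES, which was true of 55.3%, 78.4% and 65.0% of all genes. These orders were looked at after the values had been seen.

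**Figure D3:**
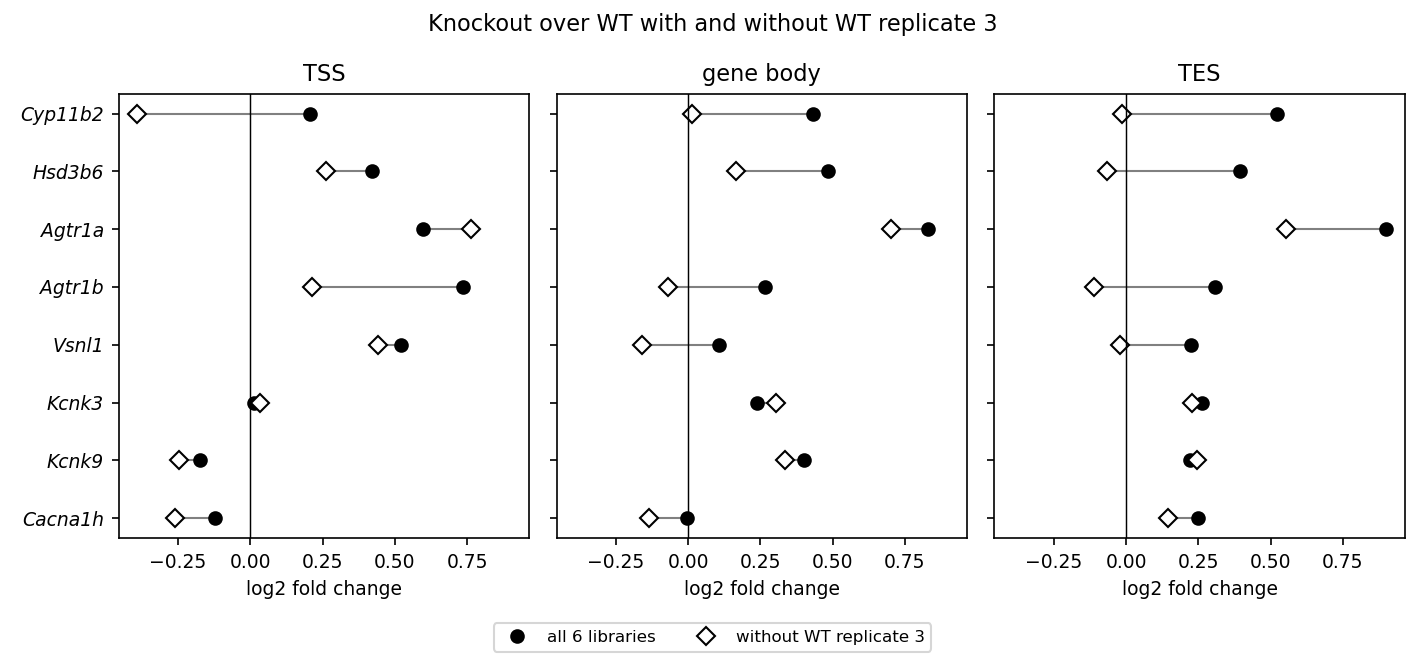
Log2 fold change of knockout over WT for each gene with all 6 libraries (filled circles) and without WT replicate 3 (open diamonds), by region. At the TES Cyp11b2 goes from 0.52 to -0.01, and Agtr1a from 0.90 to 0.55.

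Where polymerase lay along each gene was described by the count at the TSS or TES as a percentage of the gene body count. In WT the TSS count was 12.5% ± 7.95 of the gene body count for Agtr1a and 8.95% ± 5.47 for Hsd3b6, and 4.14% ± 1.48 for Cyp11b2. It was 4.04% or less for the other 5 genes, down to 1.66% ± 0.44 for Kcnk9, and the median gene had 13.4%. At the TES Cyp11b2 had 31.5% ± 11.5 and Hsd3b6 26.9% ± 5.45 of the gene body count, at the 81.9 and 78.0 percentile of genes, where the median gene had 11.3%. These are the shortest of the 8 genes, with 5614 and 8940 bp, and a gene body count grows with length. In WT replicate 3 the TSS count of Agtr1a was 21.7% of its gene body count, against 8.28% and 7.56% in WT replicates 1 and 2 and 10.4% to 14.3% in the knockout.

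The TSS count relative to the gene body was then compared by genotype, as the interaction of region and genotype with each library as a block. Agtr1b had TSS counts of 2.10%, 2.48% and 2.06% of the gene body in WT and 3.72%, 5.23% and 3.72% in the knockout. Raw percentages were higher in the knockout generally: with 1 scaling for both regions the median log2 change of all 12679 genes was 0.35. On the TMM scale of each table the ratio differed 1.44-fold (log2 change 0.53 ± 0.30), which did not pass (adjusted p = 0.955). Kcnk9 had the lowest change, -0.60 ± 0.30 (adjusted p = 0.955), from 1.22%, 1.66% and 2.11% in WT and 0.85%, 1.66% and 1.59% in the knockout. The other 6 genes lay between -0.28 and 0.31. The test called 0 of the 8 genes, 0 at an unadjusted p under 0.05, and 0 of 12679 genes (0%) with 462 at an unadjusted p under 0.05; limma on the log2 ratio also called 0. For the TES count relative to the gene body the 8 log2 changes ran from -0.16 ± 0.23 for Kcnk9 to 0.23 ± 0.19 for Cacna1h, with 0 called, 0 at an unadjusted p under 0.05 and 0 by limma, where 0.0158% of 12677 genes were called, 0.00789% as higher.

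The wider pathway was taken from 4 lists of 75 genes, of which 64 had rows and were tested. In it 0 genes were called at the TSS, 0 over the gene body and 1, as higher, at the TES. At an unadjusted p under 0.05 there were 6, 3 and 6 of the 64, where 5.57%, 5.05% and 6.85% of all tested genes reached it. The 1 call is 1.56% of the 64 genes, against 0.915% of all genes called at the TES. DESeq2 called 1, 1 and 1 and limma-voom 0, 0 and 1. The median log2 fold change was 0.04, 0.10 and 0.05 in the 3 regions, against -0.01, -0.02 and -0.02 over all genes.

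Angiotensin signalling (19 of 21 genes tested) held the gene that passed. Ren1, renin, which cleaves angiotensinogen and is also made in the mouse adrenal cortex, had 60.9, 73.5 and 78.7 CPM at the TES in WT against 164, 96.0 and 207.5 CPM in the knockout. All knockout libraries lay above all WT libraries, as for 6.7% of genes at the TES. Ren1 rose from a mean of 71.1 ± 9.16 to 156 ± 56.2 CPM, a log2 fold change of 1.13 ± 0.26 that passed (adjusted p = 0.0128). Its gene body value was 0.83 ± 0.24 and its TSS value 0.62 ± 0.40, and neither passed (adjusted p = 0.442 and 0.952). The TES call ended with joint scaling (adjusted p = 0.0602) and without WT replicate 1 or knockout replicate 3 (0.138 and 0.135), and the alternatives ran from 0.00178 to 0.138. Strain 129 carries a near-identical copy, Ren2, so the source of these reads is uncertain. Rgs4, which speeds the shut-off of Gq signalling, had TSS values of 55.5, 48.6 and 71.0 CPM in WT against 86.1, 154 and 146 CPM in the knockout. Its knockout libraries all lay above its WT libraries, as for 6.46% of genes at the TSS. The log2 fold change of 1.12 ± 0.24 did not pass (adjusted p = 0.109). DESeq2 and depth class were among 7 of 16 alternatives that called it (adjusted p = 0.00331 and 0.0013, range 0.0013 to 0.622). Rgs2, a related regulator with the highest level in the list (46.3 CPM per kb), had log2 fold changes of 0.10, 0.33 and 0.01 for TSS, gene body and TES.

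Membrane potential and calcium genes (21 of 27 tested) had 0 edgeR calls, with 1, 0 and 2 at an unadjusted p under 0.05 for TSS, gene body and TES. For this and the next lists, the share of all tested genes at that level was 5.57%, 5.05% and 6.85%. Cacna2d1, an auxiliary calcium channel subunit, had 137, 62.7 and 64.3 CPM at the TES in WT against 138, 144 and 155 CPM in the knockout, a log2 fold change of 0.72 ± 0.26 (adjusted p = 0.311). It passed without WT replicate 1 (adjusted p = 0.0269, range 0.0269 to 0.662). Calm2, a calmodulin gene, had a log2 fold change of -0.38 ± 0.15 at the TSS (adjusted p = 0.757). The genes for the other steps of aldosterone synthesis (9 of 9 tested) also had 0 calls, with 1, 1 and 0 at an unadjusted p under 0.05. Star had a gene body log2 fold change of -0.25 and Fdx1, the electron donor of the mitochondrial P450 enzymes, had 0.29. The smallest p-values were those of Tspo, the mitochondrial translocator protein, over the gene body (0.54 ± 0.21, adjusted p = 0.873) and Por, the reductase of the microsomal P450 enzymes, at the TSS (0.71 ± 0.31, adjusted p = 0.852). Among glomerulosa transcription factors and signals (15 of 18 tested) 0 were called, with 3, 0 and 0 at an unadjusted p under 0.05. Nr4a1 and Nr4a2, angiotensin-induced orphan receptors known from human cells to act on the aldosterone synthase promoter, had TES values of 0.45 ± 0.34 and 0.59 ± 0.45. In Nr4a2 the WT TES values were 373, 237 and 14.9 CPM and the knockout values 392, 382 and 159 CPM, so WT replicate 3 was lowest. Depth class was 1 of 2 alternatives that called Nr4a2 at the TES (adjusted p = 0.00412, range 0.00412 to 0.9998). Nr5a1, steroidogenic factor 1, and Nr0b1 (DAX1), its repressor, had TSS values of -0.37 and 1.00 that did not pass (adjusted p = 0.952 and 0.727).

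By the root mean square difference of centred log2 CPM over the 18 values of 6 libraries and 3 regions, the genes most like Cyp11b2 among 2643 genes at or above the median level in each table were Emd (0.56), Fos (0.61) and Plk3 (0.65), where the median gene had 0.98. Those most like Agtr1b were Emd (0.41), Etv1 (0.47) and Hist1h2be (0.47), against a median of 0.72. Among the 8 genes the closest pair was Kcnk3 and Kcnk9 (0.36), and Cyp11b2 was closest to Agtr1b (0.48).

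Markers of the cell types in the gland were summed per library over gene bodies. The 4 measured glomerulosa markers (Cyp11b2, Hsd3b6, Agtr1b and Vsnl1, of 5) summed to 298, 232 and 116 CPM in WT against 290.0, 212 and 245 CPM in the knockout. These 4 belong to the 8 genes examined, so their sum is not a separate measure of zona glomerulosa cells. The 7 zona fasciculata markers ranged from 2493 to 6126 CPM in WT and from 3848 to 4904 CPM in the knockout, and the groups overlapped. Chromaffin cell markers (10 of 13) ranged from 336 to 600.0 CPM in WT and 433 to 1156 CPM in the knockout, with knockout replicate 2 highest. Of these 10, edgeR called 0 in any region, with 3, 3 and 4 at an unadjusted p under 0.05 for TSS, gene body and TES. Among all tested genes 5.57%, 5.05% and 6.85% reached that level. The median gene body log2 fold change of the chromaffin markers was 0.82, against -0.02 over all genes. Capsule markers (5 of 9) ranged from 222 to 423 CPM in WT and from 144 to 183 CPM in the knockout, so these groups did not overlap, whereas at the TES they did (124 to 354 CPM against 87.7 to 139 CPM). Pdgfra and Col3a1, genes of capsular and other fibroblasts, were lower at the TES in the knockout (log2 fold change -1.71 ± 0.30 and -1.33 ± 0.31, adjusted p = 0.000538 and 0.0145). Pdgfra had 26.6, 113 and 91.8 CPM there in WT against 24.5, 20.6 and 24.6 CPM in the knockout. Col3a1 had 33.7, 61.8 and 49.9 CPM against 30.7, 15.5 and 12.8 CPM. In both, WT replicate 1 was the lowest WT library and lay near knockout replicate 1. The other 3 capsule genes were not called, and 0.915% of all tested genes were called at the TES. Endothelial markers (5 of 7) ranged from 663 to 824 CPM in WT and 610 to 680 CPM in the knockout, macrophage markers (5 of 8) from 43.3 to 57.9 and 50.3 to 55.7, smooth muscle markers (3 of 5) from 112 to 146 and 92.8 to 126, and Schwann and neuron markers (4 of 7) from 390 to 610 and 407 to 503 CPM. The measured adipocyte marker (Fabp4, 1 of 5) ranged from 9.23 to 41.3 and 24.3 to 27.0 CPM. That of the X-zone (Thrb, 1 of 3), a transient inner cortical zone, ranged from 446 to 712 and 424 to 482 CPM. Both values rest on a single gene, which need not stand for its cell type. edgeR called 0 genes of these lists and of the fasciculata list in each region, with at most 2 of a list at an unadjusted p under 0.05, and the 5 kidney markers were not analysed here. In the other regions some sums of these lists also did not overlap. Of single genes, 6.46%, 6.51% and 6.7% had all knockout libraries above all WT libraries for TSS, gene body and TES. All knockout libraries lay below for 4.94%, 3.87% and 4.83% of genes. Such a share was not computed for sums of genes. At the TSS the knockout sums were above WT for chromaffin markers (225 to 396 CPM against 187 to 212) and glomerulosa markers (61.9 to 82.2 against 29.1 to 61.0). Taken singly, each of the 4 glomerulosa genes had overlapping groups at the TSS. At the TES the knockout sums were above WT for macrophage markers (647 to 701 against 467 to 584). The knockout was below WT for endothelial markers (226 to 237 against 250.01 to 332) and the single gene Thrb (25.6 to 32.5 against 40.2 to 60.9). Of the measured markers 0 had a count of 0 in any library. The part of these cell types in the values of Agtr1a, Kcnk9 and the other genes was not tested.

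**Figure D4:**
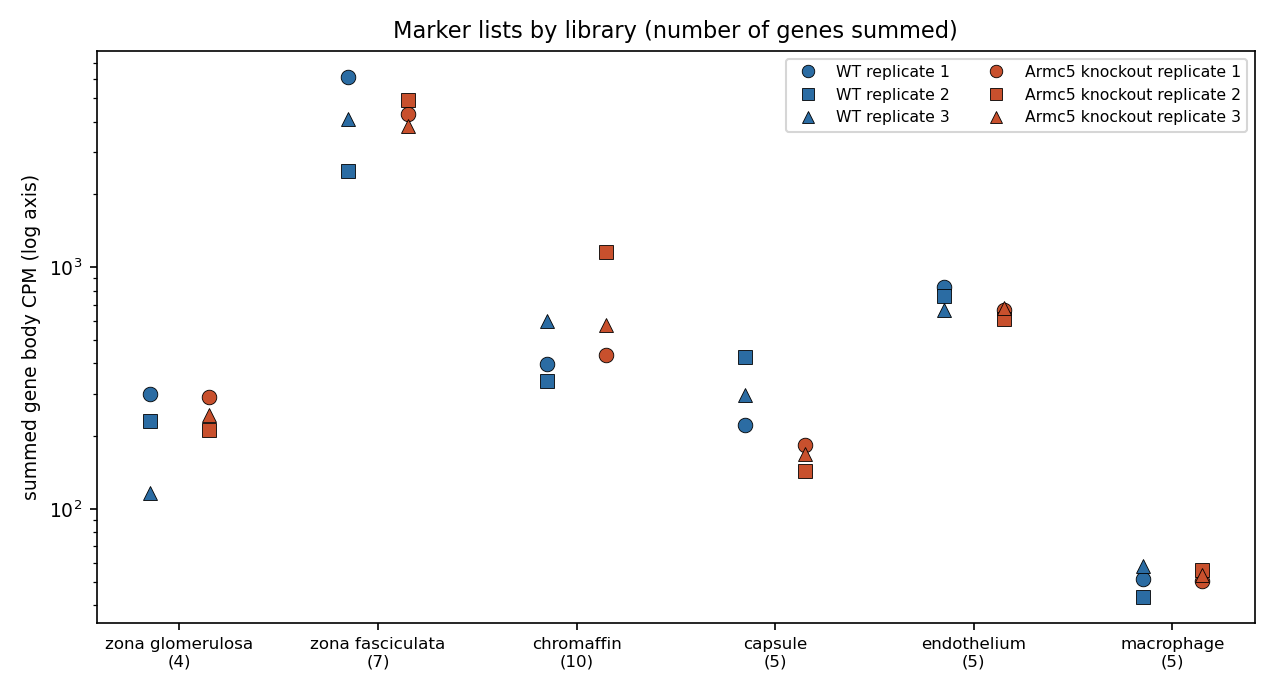
Summed gene body CPM of marker lists in each library on a log axis, with WT in blue, Armc5 knockout in red and a marker shape per replicate; the number of genes summed is in brackets. The glomerulosa sum is lowest in WT replicate 3 (116 CPM), and the capsule sums of the knockout all lie under those of WT.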

How the data were processed

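RPB1 ChIP-seq of adrenal glands gave 6 libraries, 3 WT and 3 Armc5(-/-), grouped by sample titles; columns were matched by mouse number. The authors deposited whole-number read counts per gene for TSS, gene body and TES, 1 column per library and not pooled. A stacked table of 38154 rows held the same values (0 cells differed), and its deposited log2 CPM were not used. Per the submitters' processing notes the builds were GRCm38 and mm10; the notes name BWA, Trimmomatic, bcl2fastq 2.20, HOMER, MACS2, Picard, limma and edgeR, with no role for each. No source used here gives window widths, the counting tool, read filters, strand or input use; windows of neighbouring genes can share reads.

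In R 4.3.3, edgeR 4.0.16 was run on the counts of each table: filterByExpr (minimum count 10, minimum total 15), TMM scaling within the table, the quasi-likelihood test by genotype alone, Benjamini-Hochberg adjustment over all tested genes (12682, 12714 and 12680), threshold 0.05. SE is the size of the log2 fold change over the square root of F. Ratios were tested as a region by genotype interaction with the library as block. The log2 scale for likeness used a prior count of 2. Lengths and coordinates are from RefSeq GRCm38.p6, which matched 12384 of 12718 symbols. Alternatives were RLE scaling, table totals, scaling over the 3 tables, no filter, 20 counts in 3 libraries, DESeq2 1.42.0, limma-voom (limma 3.58.1), the replicate number as a block, mouse number series, depth class and each library left out. The main edgeR fits of the 3 regions and of both ratios were tested on simulated data, and the alternatives were not.

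The 8 genes, the pathway and marker lists and the tests were chosen with earlier results of these data known. Named pathway genes were those called in any region, and per list the 3 with the highest gene body level per kb and the 2 with the smallest p; Cyp11b1, Hsd3b1 and the genes most like Cyp11b2 and Agtr1b were added by rule. Of the genes this rule names, some are not reported here. Pdgfra and Col3a1 were named after their values were seen, being the called markers. Genes within 5 kb were looked up in the annotation. Counts of reads cover no error of amplification.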

Additional observations from a re-analysis of the deposited data

How the results depend on the processing

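For the 8 genes, 384 values of fold changes under alternatives (24 main values) included 28 with the other sign and 7 that newly passed, and 176 ratio values (16 main values) included 24 with the other sign and 0 that passed. Over the alternatives in the 3 regions, Agtr1a kept its sign in all. Low counts limit some TSS values: Cyp11b2, Hsd3b6 and Kcnk9 had as few as 6, 9 and 12 TSS counts in a library. Where no cause is given, it was not tested.

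Joint scaling moved the median of all genes by 0.25 (log2) at the TSS, -0.10 over the gene body and -0.10 at the TES, table totals by 0.10 at the TSS, and gene body scaling moved the TSS ratio by 0.36. Joint scaling gave 107, 0 and 61 genes called for TSS, gene body and TES, against 43, 32 and 116, with 1 pathway gene at the TSS and 0 at the TES, and turned Kcnk9 and Cacna1h at the TSS (0.11 and 0.16) and Vsnl1 in the gene body (-0.013). Table totals and limma-voom turned Cacna1h in the gene body (0.044 and 0.016). DESeq2 called 95 TSS and 179 gene bodies, with 1 pathway gene in each and Agtr1a in the gene body as 1 of the 8 genes. With mouse number series 75 genes were called at the TSS, 0 in the gene body, 1 pathway gene at the TSS and 1 of the 8 genes at the TES.

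With depth class 158, 95 and 184 genes were called for TSS, gene body and TES, 27 TSS ratios and 9 TES ratios. Under it 1 pathway gene was called at the TSS and 2 at the TES, as were 2 of the 8 genes at the TES (Cyp11b2 and Agtr1a), and Cacna1h turned in both TSS (0.024) and gene body (0.092) and the Hsd3b6 TES ratio (0.20). TES ratios called numbered 0 with limma, the replicate block, gene body scaling and RLE scaling, against 2. Gene body scaling turned the TSS ratios of Cyp11b2 (0.18), Hsd3b6 (0.10), Agtr1a (0.15), Kcnk3 (0.082) and Cacna1h (0.21), and RLE scaling and limma turned the Hsd3b6 TES ratio (0.00088 and 0.033).

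No label says that the replicate numbers pair the libraries. Same-numbered deviations from the group means correlated at 0.44, -0.21 and 0.36 at the TSS. They correlated at 0.08, -0.58 and 0.27 over the gene body and 0.03, -0.31 and 0.21 at the TES. In each region WT replicate 1 correlated best with its own number, and WT replicates 2 and 3 with another number. With 3 libraries per group these correlations cannot decide whether the numbers pair them. With the replicate block 100, 0 and 194 genes were called for TSS, gene body and TES, 1 pathway gene at the TSS and 2 at the TES, and 2 of the 8 genes at the TES, Cyp11b2 (adjusted p = 0.0476) and Agtr1a (adjusted p = 0.00676). The block also called Nr4a2 at the TES (adjusted p = 0.018). It turned Cacna1h in the gene body (0.012) and the Hsd3b6 TES ratio (0.033).

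With each library left out in turn, genes called ranged from 5 to 84 at the TSS, 0 to 37 over the gene body and 73 to 148 at the TES, and TES ratios from 0 to 15. Pathway genes called ranged from 0 to 1 at the TSS and TES, and of the 8 genes from 0 to 1 at the TES. At the TSS the log2 fold change ranged from -0.39 to 0.59 for Cyp11b2, -0.55 to 0.053 for Kcnk9, -0.094 to 0.10 for Kcnk3 and -0.26 to 0.090 for Cacna1h. In the gene body it ranged from -0.071 to 0.57 for Agtr1b, -0.16 to 0.36 for Vsnl1, -0.049 to 0.51 for Kcnk3 and -0.14 to 0.11 for Cacna1h. At the TES it ranged from -0.012 to 1.25 for Cyp11b2, -0.066 to 0.90 for Hsd3b6, -0.11 to 0.84 for Agtr1b, -0.021 to 0.63 for Vsnl1 and -0.035 to 0.67 for Kcnk3. Values that kept their sign also moved, from 0.0019 to 0.44 for Kcnk9 at the TES, and over the gene body from 0.12 to 0.59 for Kcnk9 and 0.012 to 1.16 for Cyp11b2. TSS ratios ranged from -0.47 to 0.20 for Cyp11b2, -0.53 to 0.052 for Hsd3b6, -0.44 to 0.062 for Agtr1a and -0.29 to 0.073 for Cacna1h. TES ratios ranged from -0.054 to 0.46 for Cyp11b2, -0.18 to 0.34 for Hsd3b6, -0.15 to 0.32 for Agtr1a, -0.041 to 0.20 for Agtr1b, -0.063 to 0.19 for Vsnl1 and -0.038 to 0.15 for Kcnk3.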
